A study of Mus musculus with 18 samples.

Results

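Cathepsins and legumain are the proteases of the lysosome, and cystatin C is a secreted inhibitor of part of them. The 10 genes described here are Ctsd, Lgmn, Ctss, Ctsl, Ctsb, Ctsh, Ctsc, Ctsz and Ctsa, which encode 9 proteases, and Cst3, which encodes cystatin C. They were listed by name, with earlier results of these data known, and each has its own row among the 27297 gene rows of the table. All 10 passed the filter on low counts, which 4883 rows passed.

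The libraries hold single myeloid cells of untreated C57BL/6J mice with a GFP reporter (green fluorescent protein) in Cx3cr1, a chemokine receptor gene of microglia and other macrophages. MARS-seq, a plate method that counts the 3′ ends of polyadenylated transcripts by unique molecular identifiers (UMIs), gave 4 libraries of yolk sac at E12.5 (671 cells), 4 of brain at E12.5 (718 cells), 6 of brain at E18.5 (992 cells) and 4 of adult brain (631 cells), where E is embryonic day. Cells of both E12.5 tissues were sorted as CD45+, CD11B+ and GFP+. At E18.5 and in adults the gate took GFP+ cells with intermediate CD45 and CD11B, and the sort therefore differed between E12.5 and the later ages. The labels give neither an exact adult age nor the sex. The deposited well annotation gives 1 subject number for each of the 3 ages and places 2 libraries on each of 9 plates, so p-values measure the spread between libraries, which may be technical.

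The kept cells of a library summed to between 269698 and 309084 UMIs in yolk sac, from 228467 to 534219 in E12.5 brain, from 143876 to 217647 in E18.5 brain and from 74562 to 99494 in adult brain. All 8 macrophage markers and all 8 microglia markers were detected in every group, and at least 98.5% of the cells of each group had a C1q UMI. The microglia markers summed to 1164 to 1395 CPM in yolk sac (UMI counts scaled to an equal library total). In brain they summed to 4525 to 4994 CPM at E12.5, 10563 to 11218 at E18.5 and 15061 to 16396 in adults. The 7 yolk sac and border macrophage markers summed to 3792 to 6432 CPM in yolk sac and to at most 281 CPM in any brain library. The 4 monocyte markers summed to 0 to 1870 CPM in adult brain and to at most 207 CPM in any other library. The 9 neutrophil and granulocyte precursor markers summed to 429 to 1542 CPM in yolk sac and 78.9 to 158 CPM in E12.5 brain. Their sum was 230 to 1272 CPM in E18.5 brain and 2495 to 9439 CPM in adult brain. Prtn3, Mpo, Elane and Ctsg made up nearly all of it, and the mature neutrophil genes Ngp and S100a9 were at 0 in all groups. The summed level of the 6 erythroid markers with a row was 189 to 4010 CPM in yolk sac, 11.2 to 150 CPM in E12.5 brain, 0 to 3070 CPM in E18.5 brain and 0 to 134 CPM in adult brain. The part of these cells or of their RNA in the results below was not tested, except that counts restricted to cells with no UMI of either list are given where they change a call, and only 105 of the 631 adult cells remain there. No cell barcode was shared between libraries of a sequencing batch.

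Lysosomal proteases are made as inactive precursors and become active in the acid of the endosome and lysosome, where they digest proteins taken up by phagocytosis or delivered by autophagy. Cathepsin D is an aspartic protease, legumain cuts after asparagine and also trims other cathepsins to their mature forms, and cathepsins S, L, B, H, C and Z are papain-like cysteine proteases. Cystatin C binds and blocks papain-like proteases and legumain, but not cathepsin D. Microglia, the macrophages of the brain, descend from yolk sac progenitors and are known for high transcript levels of several of these genes.

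The promoters of Cst3 and of the 4 protease genes with the most UMIs over all kept cells are shown. They are given because the fold changes below are differences in the transcripts of these genes. The sequences are RefSeq's, on build GRCm38.p6, which differs from the mm9 build of the counts, and run from 250 bases before a gene start to 50 after it, 5′ to 3′ on the gene's strand. Capitals mark 3 motifs searched on both strands. These are CACGTG, the core of the element bound by the lysosomal regulator TFEB, its extended form TCACGTGA, which contains CACGTG, and GAGGAA or its reverse TTCCTC, the core bound by the myeloid factor PU.1.
Ctsd, chr7:142387778-142388077, minus strand: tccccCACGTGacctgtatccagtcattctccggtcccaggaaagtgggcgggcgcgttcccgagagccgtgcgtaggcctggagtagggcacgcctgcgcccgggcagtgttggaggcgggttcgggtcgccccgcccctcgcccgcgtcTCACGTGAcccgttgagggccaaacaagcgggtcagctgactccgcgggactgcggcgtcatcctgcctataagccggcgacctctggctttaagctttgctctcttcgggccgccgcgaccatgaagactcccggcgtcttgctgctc
Lgmn, the second of its 2 listed starts, chr12:102439043-102439342, minus strand: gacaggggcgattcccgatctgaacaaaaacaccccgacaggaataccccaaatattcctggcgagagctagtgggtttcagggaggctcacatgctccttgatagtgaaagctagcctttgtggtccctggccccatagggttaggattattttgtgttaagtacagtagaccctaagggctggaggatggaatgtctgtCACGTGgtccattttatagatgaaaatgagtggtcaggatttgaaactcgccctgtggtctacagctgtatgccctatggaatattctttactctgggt
Ctsl, chr13:64370471-64370770, minus strand: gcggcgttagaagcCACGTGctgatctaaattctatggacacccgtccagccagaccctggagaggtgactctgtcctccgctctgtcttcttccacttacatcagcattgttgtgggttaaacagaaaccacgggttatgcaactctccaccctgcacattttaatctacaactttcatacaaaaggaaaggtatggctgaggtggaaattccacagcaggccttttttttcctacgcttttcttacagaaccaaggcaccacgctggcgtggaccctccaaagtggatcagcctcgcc
Ctss, chr3:95526536-95526835, plus strand: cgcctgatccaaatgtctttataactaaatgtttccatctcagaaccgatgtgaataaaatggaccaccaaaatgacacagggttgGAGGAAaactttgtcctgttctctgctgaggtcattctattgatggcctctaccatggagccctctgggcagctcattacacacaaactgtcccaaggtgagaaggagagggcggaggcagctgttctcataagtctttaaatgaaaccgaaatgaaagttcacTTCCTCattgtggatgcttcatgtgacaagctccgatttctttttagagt
Cst3, chr2:148875463-148875762, minus strand: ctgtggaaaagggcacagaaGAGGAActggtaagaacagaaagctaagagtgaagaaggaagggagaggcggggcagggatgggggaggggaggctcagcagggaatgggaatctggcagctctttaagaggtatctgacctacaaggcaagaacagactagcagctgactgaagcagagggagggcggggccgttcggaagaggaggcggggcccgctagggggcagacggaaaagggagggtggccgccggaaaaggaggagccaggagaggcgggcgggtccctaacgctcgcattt

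Promoters were listed for 8 of the 10 genes, and Ctsb and Ctsh had none there. CACGTG stood in 4 of the 8 genes (Ctsa, Ctsd, Ctsl and Lgmn), against 7.15% of 32851 promoters of the same length. Its extended form stood in 2 of the 8 (Ctsa and Ctsd), against 0.974% of all promoters, and GAGGAA in 3 of the 8 (Cst3, Ctsc and Ctss), against 28.3%. Ctsa and Lgmn each have 2 listed starts, and the motif lay at 1 of them. The percentages count single promoters, whereas a gene with 2 starts was counted if either held the motif. The first Lgmn start, not printed above, held none of the motifs. These matches describe letters only and say nothing of binding in these cells.

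Ctsd was the most abundant protease transcript at every stage. It took the largest share of the UMIs of the 9 proteases in 18 of 18 libraries, with 45.8% ± 2.05 in yolk sac, 47.4% ± 7.76 in E12.5 brain, 42.1% ± 2.82 in E18.5 brain and 57.4% ± 2.62 in adult brain (SD, n = 4, 4, 6 and 4). Lgmn came next on average in each group, with 23.5% ± 3.51, 27.9% ± 3.48, 27.1% ± 3.72 and 28.9% ± 1.37 in the same order. Ctss followed in each group by mean level. The next place by mean level was held by Ctsc in yolk sac, Ctsl in E12.5 and E18.5 brain and Ctsh in adult brain. In yolk sac Ctsc and Ctsl were level on average, at 6.26% each. Ctsc stood above Ctss in yolk sac libraries 1 and 2 but below Ctsl in libraries 3 and 4. In libraries 3 and 4 of E12.5 brain Ctsh stood above Ctsl. Since each UMI marks 1 transcript end, levels of different genes need no scaling by length.

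**Figure D1:**
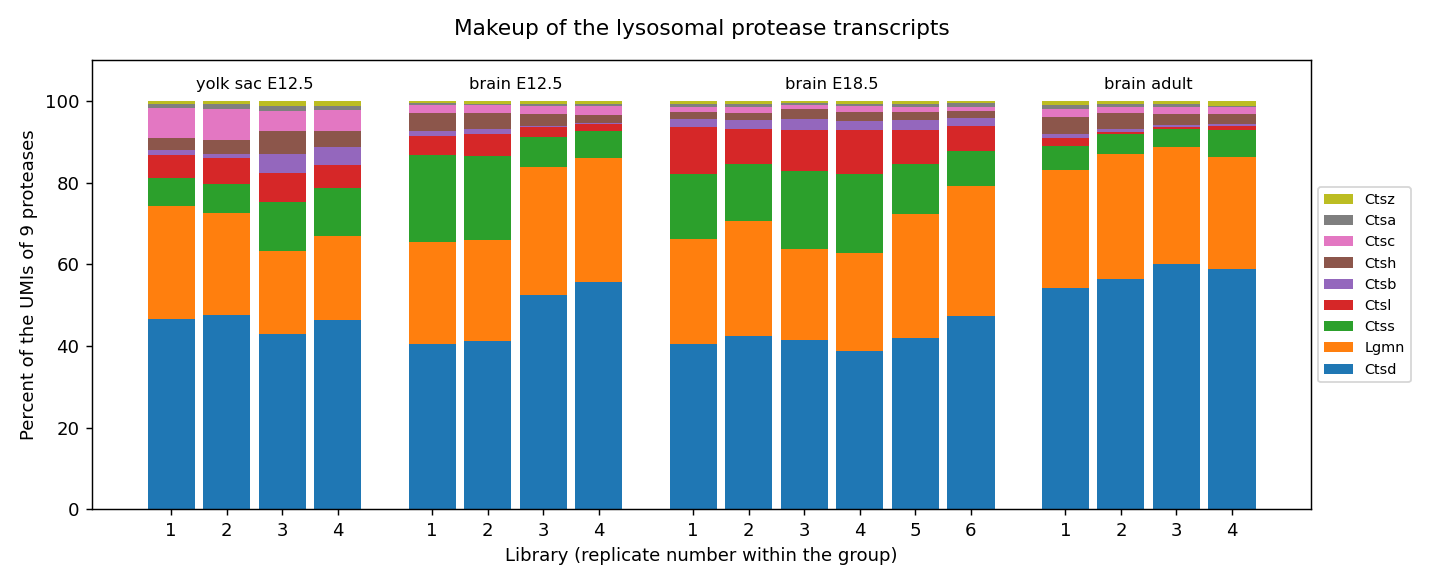
Stacked bars give, for each of the 18 libraries, the percent of the UMIs of 9 proteases that each protease took. Ctsd is the lowest and widest layer in every bar, the Ctsl layer is widest at E18.5 (9.19% on average) and narrowest in adult brain (1.04%), and the first 2 bars of E12.5 brain carry more Ctss than the other 2.

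The proteases together made up more of the transcriptome in brain than in yolk sac. Their summed level was 9039 ± 572 CPM in yolk sac and 18945 ± 536 CPM in E12.5 brain (SD, n = 4 each). It was 29994 ± 2099 CPM at E18.5 (n = 6) and 27924 ± 589 CPM in adults (n = 4). The sums of yolk sac, of E12.5 brain and of the 2 later stages do not overlap, whereas E18.5 and adult libraries do.

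Fold changes come from 1 edgeR quasi-likelihood fit of all libraries, and a gene was called where the p adjusted over the 4883 rows (Benjamini-Hochberg) fell under 0.05. In yolk sac against E12.5 brain 6 of the 10 genes were called, beside 15.9% of all rows, 1 of them higher and 5 lower (7.04% and 8.81% of all rows). At E18.5 against E12.5 in brain 7 were called, beside 24.5% of all rows, 7 higher and 0 lower (11.1% and 13.4% of all rows). With edgeR, none of the 3 uncalled members of that comparison was lower at an unadjusted p under 0.05, and DESeq2 also called no member lower. In adult against E18.5 brain 6 were called, beside 21.5% of all rows, 3 higher and 3 lower (10.3% and 11.2%). In adult against E12.5 brain 7 were called, beside 38.6% of all rows, 6 higher and 1 lower (17.8% and 20.7%). Groups without a shared range were found for 4, 6, 5 and 5 members in these comparisons, beside 19.9%, 18.7%, 16.8% and 34.3% of all rows. The median log2 fold change of the 10 genes was -0.44, 0.74, 0.25 and 0.62 in these comparisons, beside -0.05, -0.03, -0.03 and -0.07 over all rows. The comparisons share libraries, so their values stand side by side and are not independent of each other.

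**Figure D2:**
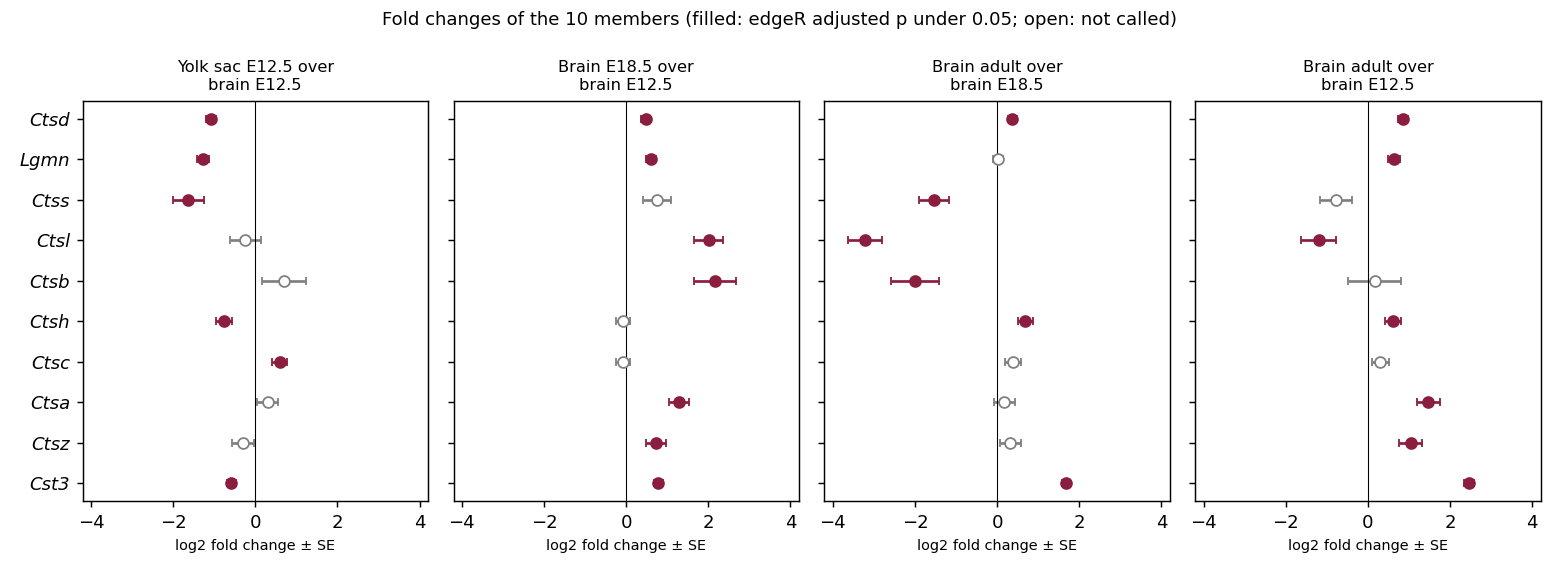
Points give the log2 fold change and bars its standard error (SE) for each gene in 4 comparisons, filled where edgeR's adjusted p was under 0.05. Ctsl lies at 2.01 at E18.5 against E12.5 and at -3.21 in adult against E18.5 brain, whereas Cst3 lies to the right of 0 in all 3 comparisons between brain stages.

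Cathepsin D was lower in yolk sac than in E12.5 brain and rose at each later brain stage. Ctsd had 4381, 4532, 3543 and 4142 CPM in the yolk sac libraries, against 7950, 7819, 9846 and 10216 CPM in those of E12.5 brain. Its E18.5 libraries ran from 11395 to 13838 CPM with a median of 12626, and the adult ones had 15137, 15681, 16386 and 16858 CPM. No 2 groups overlap. Yolk sac was lower than E12.5 brain by a log2 fold change of -1.08 (SE 0.12, adjusted p = 5.58e-09), E18.5 was higher than E12.5 by 0.48 (SE 0.11, adjusted p = 0.00146) and adult was higher than E18.5 by 0.38 (SE 0.11, adjusted p = 0.0117). The last step was not called with a minimum of 500 UMIs per cell (0.29, adjusted p = 0.0934), with no filter on low counts (0.19, adjusted p = 0.337), with counts summed per plate (0.33, adjusted p = 0.215), without adult library 4 (0.32, adjusted p = 0.0714) or in cells with no granulocyte or erythroid UMI (0.03, adjusted p = 0.956).

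Legumain was higher in E12.5 brain than in yolk sac and higher again at E18.5. Lgmn had 2612, 2384, 1692 and 1861 CPM in yolk sac, against 4902, 4719, 5866 and 5603 CPM in E12.5 brain, with no overlap (log2 fold change -1.27, SE 0.14, adjusted p = 1.38e-09). At E18.5 it ran from 7036 to 9244 CPM with a median of 7939, above every E12.5 library (0.60, SE 0.12, adjusted p = 3.44e-04). The adult libraries had 8071, 8571, 7782 and 7899 CPM. They lie inside the E18.5 range, and adult did not differ from E18.5 beyond the spread (0.03, SE 0.12, adjusted p = 0.887). Over the 18 libraries Ctsd and Lgmn had a Pearson r of 0.971 on the log2 CPM scale, a description that follows the 4 groups.

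**Figure D3:**
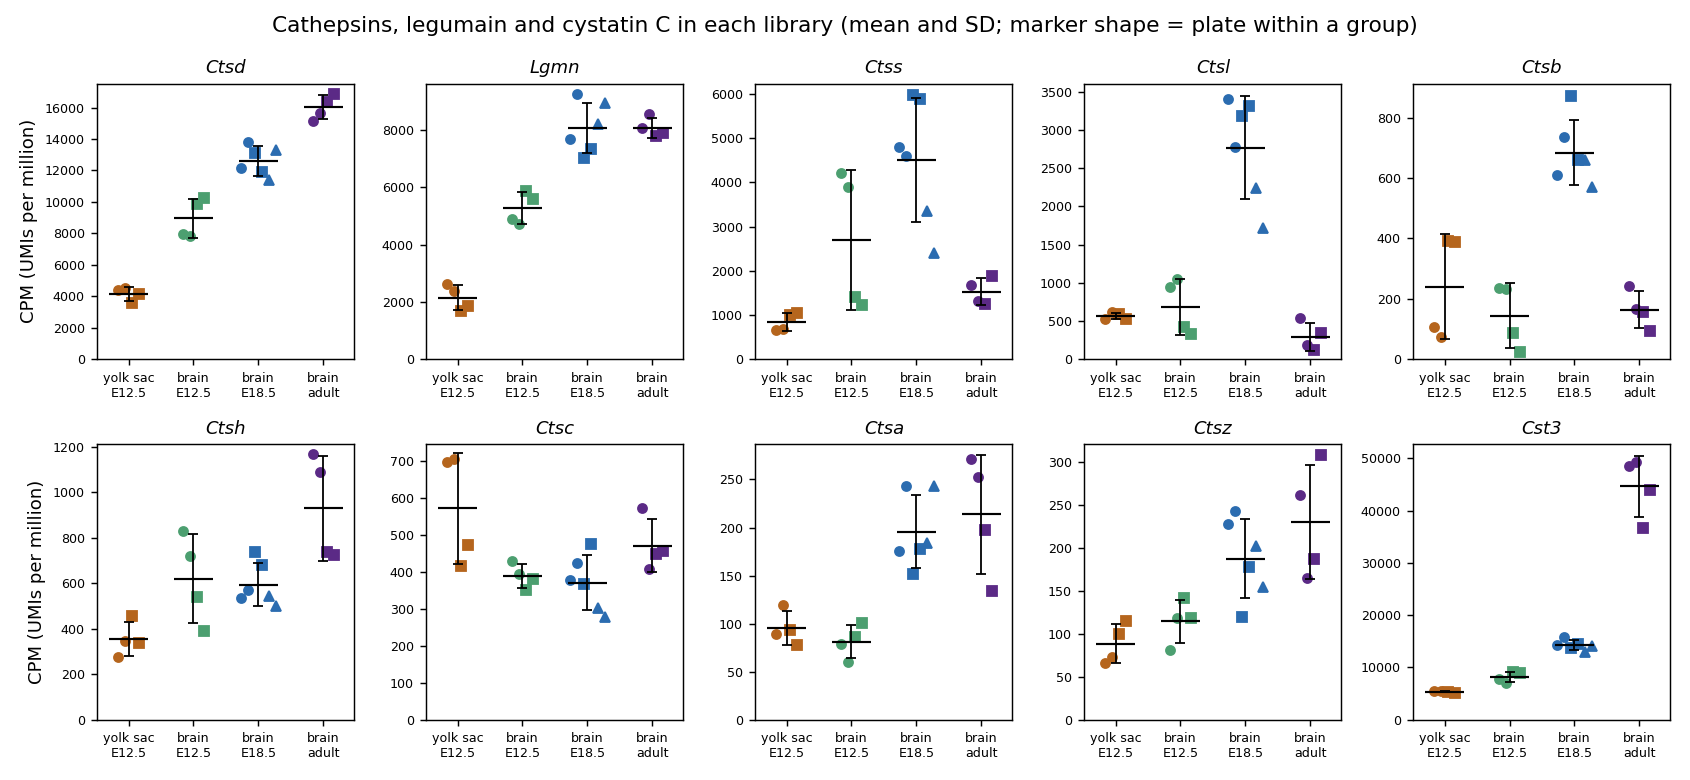
Each panel gives 1 gene's CPM in the 18 libraries, with the mean and SD per group, and marker shapes separate the plates of a group. Ctsd and Cst3 climb from yolk sac to adult brain, Ctsl and Ctsb peak at E18.5, and Ctss, Ctsl and Ctsb differ between the 2 plates of E12.5 brain.

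Ctss, Ctsl and Ctsb, which encode endopeptidases, were highest on average at E18.5 and lower in adults. Cathepsin S stays active at neutral pH and trims the invariant chain of MHC class II. Ctss had 651, 682, 987 and 1034 CPM in yolk sac, against 4202, 3901, 1414 and 1221 CPM in E12.5 brain, and the groups do not overlap (log2 fold change -1.62, SE 0.39, adjusted p = 0.00836). At E18.5 it ran from 2406 to 5969 CPM with a median of 4692, overlapping E12.5 brain (0.76, SE 0.35, adjusted p = 0.132). Adult libraries had 1678, 1308, 1247 and 1878 CPM, all below E18.5 (-1.53, SE 0.37, adjusted p = 0.00787). Adult and yolk sac libraries do not overlap, but their difference was not called (0.85, SE 0.39, adjusted p = 0.0952), nor was adult against E12.5 brain (-0.77, SE 0.39, adjusted p = 0.131), which was called without library 4 of E12.5 brain (-0.99, adjusted p = 0.0465).

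Cathepsin L, a broad endopeptidase, had the largest fold change of the 10 genes in the 4 comparisons. Ctsl had 529, 613, 589 and 523 CPM in yolk sac, against 941, 1045, 420 and 324 CPM in E12.5 brain, which lie on both sides of the yolk sac range (log2 fold change -0.24, SE 0.38, adjusted p = 0.770). At E18.5 it ran from 1720 to 3405 CPM with a median of 2977, above every E12.5 library (2.01, SE 0.36, adjusted p = 7.71e-04). Adult libraries had 533, 187, 114 and 335 CPM, below every E18.5 library (-3.21, SE 0.42, adjusted p = 5.11e-05). Both changes held in every fit, 22 of 22 each with the main fit counted. Adult was also lower than E12.5 brain (-1.20, SE 0.43, adjusted p = 0.0400), but these groups overlap. The call held in 11 of 20 fits, the main fit counted. It was lost without library 1 or 2 of E12.5 brain (-1.01 and -0.95, adjusted p = 0.100 and 0.104) and without adult library 2, 3 or 4 (-1.02, -0.90 and -1.25, adjusted p = 0.115, 0.118 and 0.0677).

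Cathepsin B, which also removes dipeptides from the end of a chain, shared the peak at E18.5 at a lower level. Ctsb had 107, 72.6, 391 and 389 CPM in yolk sac, against 235, 232, 85.7 and 21.9 CPM in E12.5 brain, with overlap (log2 fold change 0.70, SE 0.54, adjusted p = 0.489). At E18.5 it ran from 570 to 871 CPM with a median of 660, above every E12.5 library (2.16, SE 0.51, adjusted p = 0.00589). Adult libraries had 241, 165, 156 and 93.9 CPM, below every E18.5 library (-1.998, SE 0.59, adjusted p = 0.0242). The adult call was lost without adult library 2, 3 or 4, with values of -2.02, -1.98 and -1.85 (adjusted p = 0.0582, 0.0622 and 0.0677).

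Plates moved with these genes inside groups. In E12.5 brain the second plate was lower than the first for Ctsb (log2 difference -1.99, adjusted p = 6.97e-07), Ctss (-1.51, adjusted p = 7.22e-15), Ctsl (-1.31, adjusted p = 0.0143) and Ctsh (-0.63, adjusted p = 0.0102), and higher for Ctsd (0.45), Cst3 (0.38) and Lgmn (0.36). These 2 plates were sequenced in different batches, the second plate's libraries had medians of 1217 and 1206 UMIs per cell, against 2509 and 2513 on the first plate, and 497 of 4883 rows differed between them. With every cell thinned to 300 UMIs, the share of cells with a Ctss UMI ran from 22.1% in a library of the second plate to 67.9% in one of the first, and the part of depth or batch in the gap was not tested. In yolk sac the second plate was higher for Ctsb (2.10, adjusted p = 1.99e-09) and Ctss (0.58, adjusted p = 0.00446) and lower for Ctsc (-0.68, adjusted p = 0.0126) and Lgmn (-0.51, adjusted p = 7.91e-04). The yolk sac plates were also sequenced in different batches, and the part of batch in these gaps was not tested. Among the 3 E18.5 plates, Ctss alone of the 10 genes differed, lower on the last plate than on the middle one (-1.07, adjusted p = 2.06e-09) and the first one (-0.71, adjusted p = 4.11e-04). No member differed between the adult plates, where 1 of 4883 rows did. Of the 4883 rows, 297 differed between the yolk sac plates. Between E18.5 plates 12 rows differed (first and middle), 28 (first and last) and 63 (middle and last).

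With the 2 libraries of each plate summed, which leaves 9 samples, many calls were lost. In yolk sac against E12.5 brain these were Ctss (-1.58, adjusted p = 0.227), Ctsc (0.63, adjusted p = 0.168), Ctsh (-0.72, adjusted p = 0.128) and Cst3 (-0.54, adjusted p = 0.0674). At E18.5 against E12.5 they were Ctsb (2.24, adjusted p = 0.176), Ctsz (0.76, adjusted p = 0.102) and Ctsd (0.51, adjusted p = 0.0561). In adult against E18.5 brain they were Ctsb (-2.04, adjusted p = 0.231), Ctsd (0.33, adjusted p = 0.215), Ctss (-1.60, adjusted p = 0.137) and Ctsh (0.63, adjusted p = 0.108), and in adult against E12.5 brain Ctsh (0.60, adjusted p = 0.103) and Ctsl (-1.21, adjusted p = 0.0957).

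Cells with no granulocyte or erythroid UMI numbered only 2 in adult library 2, 20 in yolk sac library 4 and 24 in E18.5 library 6. Each such sum still entered the fit as 1 library, and the part of these low numbers was not tested. Calls were also lost in these cells. In yolk sac against E12.5 brain these were Ctsc (0.46, adjusted p = 0.214), Cst3 (-0.59, adjusted p = 0.147) and Ctsh (-0.62, adjusted p = 0.109), and at E18.5 against E12.5 Ctsd (0.54, adjusted p = 0.141). In adult against E18.5 brain they were Ctsd (0.03, adjusted p = 0.956), Ctsb (-2.29, adjusted p = 0.148) and Ctsh (0.70, adjusted p = 0.117). In adult against E12.5 brain they were Ctsz (0.35, adjusted p = 0.722), Ctsa (0.39, adjusted p = 0.720), Lgmn (0.35, adjusted p = 0.376) and Ctsd (0.58, adjusted p = 0.165).

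Sequencing batch touches the comparisons unequally. Adult and E18.5 libraries were all in 1 batch. The libraries of E12.5 brain share none with E18.5 or adult brain, so no within-batch value exists for those comparisons, and a fit with a batch term rests on the yolk sac libraries that link the batches. In that fit Ctsa and Ctsz at E18.5 against E12.5 were no longer called (log2 fold changes 1.29 and -0.14, adjusted p = 0.0820 and 0.918), and Ctsz changed sign. In yolk sac against E12.5 brain it lost Ctss (-0.99, adjusted p = 0.131) and Ctsh (-0.58, adjusted p = 0.0993). Adult against E12.5 brain likewise lost Ctsh (0.65, adjusted p = 0.133), Ctsl (-0.32, adjusted p = 0.784) and Ctsz (0.17, adjusted p = 0.853) and gained Ctsc (1.01, adjusted p = 0.00970). Within the 1 batch that holds 2 libraries each of yolk sac and E12.5 brain, 2 members were higher and 6 lower in yolk sac, and Ctsl was then higher (0.63, SE 0.17, adjusted p = 0.00191) and Ctsz lower (-0.88, SE 0.34, adjusted p = 0.0480).

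The proteases that trim chain ends differed in their courses. Cathepsin H is mainly an aminopeptidase. Ctsh had 278, 348, 456 and 337 CPM in yolk sac, against 831, 721, 540 and 390 CPM in E12.5 brain, with overlap (log2 fold change -0.77, SE 0.19, adjusted p = 0.00355). Its E18.5 libraries ran from 498 to 738 CPM with a median of 556, inside the E12.5 range (-0.07, SE 0.18, adjusted p = 0.800). Adult libraries had 1166, 1088, 738 and 724 CPM and were higher than E18.5 (0.68, SE 0.18, adjusted p = 0.00534), a call lost without the first adult library (0.53, adjusted p = 0.0603). Adult was also higher than E12.5 brain (0.61, adjusted p = 0.0127), which was lost without the first adult library (0.45, adjusted p = 0.0995), without library 4 of E12.5 brain (0.47, adjusted p = 0.0535) and with no filter on low counts (0.37, adjusted p = 0.182). Ctsh was the second protease, after Ctsd, that was higher in adult than in E18.5 brain.

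Cathepsin C activates the granule serine proteases of myeloid and lymphoid cells. Ctsc was the only member called higher in yolk sac than in E12.5 brain, with 696, 704, 414 and 471 CPM against 429, 393, 351 and 381 CPM (log2 fold change 0.59, SE 0.18, adjusted p = 0.0212). The groups overlap, since the third yolk sac library lies below the first of E12.5 brain. The call was lost without either yolk sac library of the first plate (0.50 and 0.48, adjusted p = 0.0889 and 0.108), without library 2 or 3 of E12.5 brain (0.58 and 0.56, adjusted p = 0.0559 and 0.0572), and in cells with no granulocyte or erythroid UMI (0.46, adjusted p = 0.214). Within the shared batch, with each tissue on 1 plate, the log2 fold change was 0.95 (adjusted p = 1.66e-07). Between brain stages Ctsc ran from 277 to 476 CPM at E18.5 and from 407 to 573 CPM in adults, and no comparison of these was called.

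Cathepsin A, a serine carboxypeptidase that also protects neuraminidase and beta-galactosidase, was higher from E18.5 on. Ctsa ran from 77.9 to 120 CPM in yolk sac and from 59.9 to 101 CPM in E12.5 brain, which overlap. It ran from 151 to 243 CPM at E18.5, above every E12.5 library (log2 fold change 1.29, SE 0.24, adjusted p = 7.01e-05), and from 134 to 271 CPM in adults. Cathepsin Z, a carboxypeptidase, had 66.6 to 115 CPM in yolk sac, 80.9 to 141 CPM in E12.5 brain, 120 to 243 CPM at E18.5 and 165 to 308 CPM in adults. Its E18.5 level was higher than that of E12.5 (0.72, SE 0.24, adjusted p = 0.0218), with overlap and without the call when the first E12.5 brain library was left out (0.59, adjusted p = 0.0971) or no filter on low counts was used (0.67, adjusted p = 0.0596). Neither gene differed between adult and E18.5 brain beyond the spread (0.18 and 0.32, adjusted p = 0.666 and 0.410).

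Cystatin C had the largest rise of the 10 genes in adult against E18.5 brain. Cst3 had 5506, 5479, 5277 and 5206 CPM in yolk sac, against 7786, 7078, 9066 and 8881 CPM in E12.5 brain (log2 fold change -0.58, SE 0.12, adjusted p = 2.34e-04). At E18.5 it ran from 13039 to 15750 CPM with a median of 14271 (0.79 against E12.5, SE 0.11, adjusted p = 6.01e-07). Adult libraries had 48505, 49317, 36730 and 43883 CPM, 3.20-fold above E18.5 (1.68, SE 0.11, adjusted p = 8.08e-16). No 2 groups overlap, and by mean level Cst3 stood 6th, 5th, 3rd and 1st of the 4883 tested rows in yolk sac, E12.5, E18.5 and adult brain. The adult call held in all 22 fits, the main fit counted, from 1.25 in cells with no granulocyte or erythroid UMI upward.

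Ordered by mean level, adult, E18.5, E12.5 brain and yolk sac followed each other in Ctsd and Cst3, and each neighbour differed by the edgeR fit. Lgmn had the same order, with adult and E18.5 not told apart. For Ctsl the order was E18.5, E12.5 brain, yolk sac and adult, and yolk sac differed neither from E12.5 brain nor from adult brain (adult against yolk sac -0.96, adjusted p = 0.0897). Ctsb ran E18.5, yolk sac, adult and E12.5 brain, of which only E18.5 differed from its neighbour (E18.5 against yolk sac 1.46, adjusted p = 0.0305). Ctss ran E18.5, E12.5 brain, adult and yolk sac, and no step between neighbours was called. Ctsh ran adult, E12.5 brain, E18.5 and yolk sac, with the 2 embryonic brain stages not told apart. Ctsa and Ctsz split into adult with E18.5 and the 2 E12.5 tissues. For Ctsc yolk sac differed from E12.5 brain and E18.5, and adult brain was told apart from no group (adult against yolk sac -0.29, adjusted p = 0.241). At E18.5 against yolk sac all 10 genes were called, beside 37.0% of all rows, with 9 higher and Ctsc lower (18.2% and 18.8%). In adult brain against yolk sac 6 were called, beside 44.7% of all rows, all 6 of them higher (21.6% of all rows were higher and 23.1% lower). The libraries did not overlap for 9 members at E18.5 against yolk sac (26.2% of all rows) and for 7 in adult brain against yolk sac (39.8%).

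The makeup of the protease pool shifted at E18.5 and again in the adult. Exact two-sided permutation tests over libraries were run for 9 proteases in 4 comparisons, with Benjamini-Hochberg adjustment over the 36. The shares of a library are parts of 1 whole, so a fall in some raises others, and the tests are not independent. At E18.5 against E12.5 in brain, Ctsl took 9.19% against 3.57% and Ctsb 2.28% against 0.748% of protease UMIs, while Ctsc fell to 1.23% at E18.5, against 2.05% at E12.5 (exact permutation test, each p = 0.00952, adjusted p = 0.0429). In adult against E18.5 brain, Ctsd took 57.4% against 42.1% and Ctsh 3.33% against 1.98%, and the shares of Ctsl (1.04% in adults against 9.19% at E18.5), Ctss (5.46% against 14.9%) and Ctsb (0.589% against 2.28%) fell (exact permutation test, each p = 0.00952, adjusted p = 0.0429). No share was called in yolk sac against E12.5 brain or in adult against E12.5 brain. There 4 libraries stand against 4, the smallest possible p is 0.0286, and its adjusted value was 0.0686. With 6 libraries against 4 the smallest possible p of this test is 0.00952.

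Cystatin C was set against its targets as the number of Cst3 UMIs per UMI of the 7 cysteine proteases, legumain included. The ratio was 1.11, 1.12, 1.14 and 1.10 in yolk sac, against 0.670, 0.636, 1.03 and 1.10 in E12.5 brain (exact permutation test, p = 0.0571, adjusted over 4 tests 0.0762). At E18.5 it ran from 0.754 to 0.971, with a mean of 0.836 ± 0.0753 (SD, n = 6), inside the E12.5 range (exact permutation test, p = 0.810). The adult libraries had 3.87, 4.15, 3.44 and 3.75, all far above those of E18.5 (exact permutation test, p = 0.00952, adjusted p = 0.0381). Adult against E12.5 brain gave the smallest p of the design, 0.0286 (exact permutation test, adjusted p = 0.0571).

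**Figure D4:**
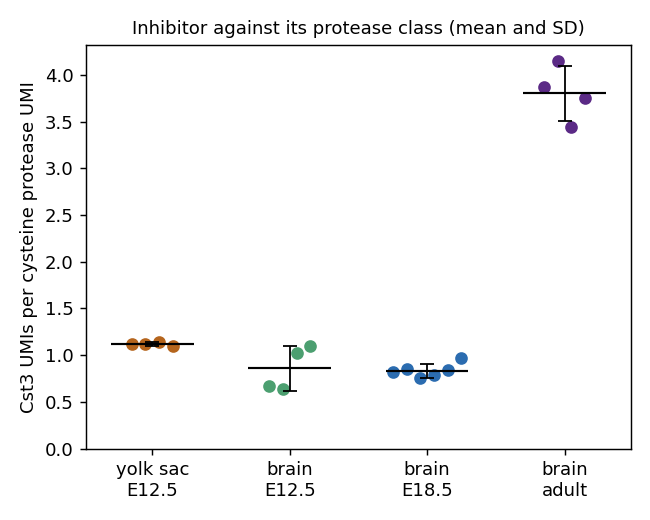
Points give the Cst3 UMIs per cysteine protease UMI of each library, with the mean and SD per group. The 4 adult libraries lie between 3.44 and 4.15 and all other libraries between 0.636 and 1.14.

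Single cells were compared after each was thinned to 300 UMIs, and these shares are descriptions. A Ctsd UMI was found in 66.0% of yolk sac cells, 86.5% of E12.5 brain cells, 94.7% of E18.5 cells and 97.8% of adult cells. For Lgmn the shares were 46.1%, 75.5%, 89.3% and 90.6% in the same order. A Cst3 UMI was in 80.2%, 87.9%, 96.8% and 100% of cells, and the median adult cell had 13 Cst3 UMIs of its 300, against 4 at E18.5. Unthinned, with median totals of 1511, 1725, 983 and 521 UMIs per cell, Ctsd was found in 94.2%, 98.5%, 99.9% and 99.5% of cells. Of the 36 empty wells 7 had a Ctsd UMI, 8 a Cst3 UMI and 5 a Ctss UMI, with 0.75 UMIs of the 10 genes per well, against 42.9 per kept cell.

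The peak of Ctsl at E18.5 was also one of detection. A Ctsl UMI was in 47.8% of thinned E18.5 cells, with libraries from 26.8% to 64.4%, and in 6.50% of adult cells, with libraries from 2.45% to 11.7%. In yolk sac and E12.5 brain the shares were 13.3% and 14.3%. Ctss was found in 20.4%, 46.0%, 66.4% and 29.6% of thinned cells of yolk sac, E12.5, E18.5 and adult brain, and Ctsb in 6.26%, 3.34%, 15.1% and 4.60%. Ctsl and Ctsb were in 0 of 36 empty wells, which allows a share of up to 8.33%. The thinned adult shares of both, and the thinned Ctsb shares of yolk sac and E12.5 brain, lie below what the empty wells can bound. The empty wells themselves were not thinned. Unthinned, Ctsl was in 43.1%, 50.3%, 77.3% and 13.5% of cells, and Ctsb in 26.2%, 21.0%, 38.0% and 7.61%. Of these unthinned shares only that of Ctsb in adult cells lies below 8.33%.

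**Figure D5:**
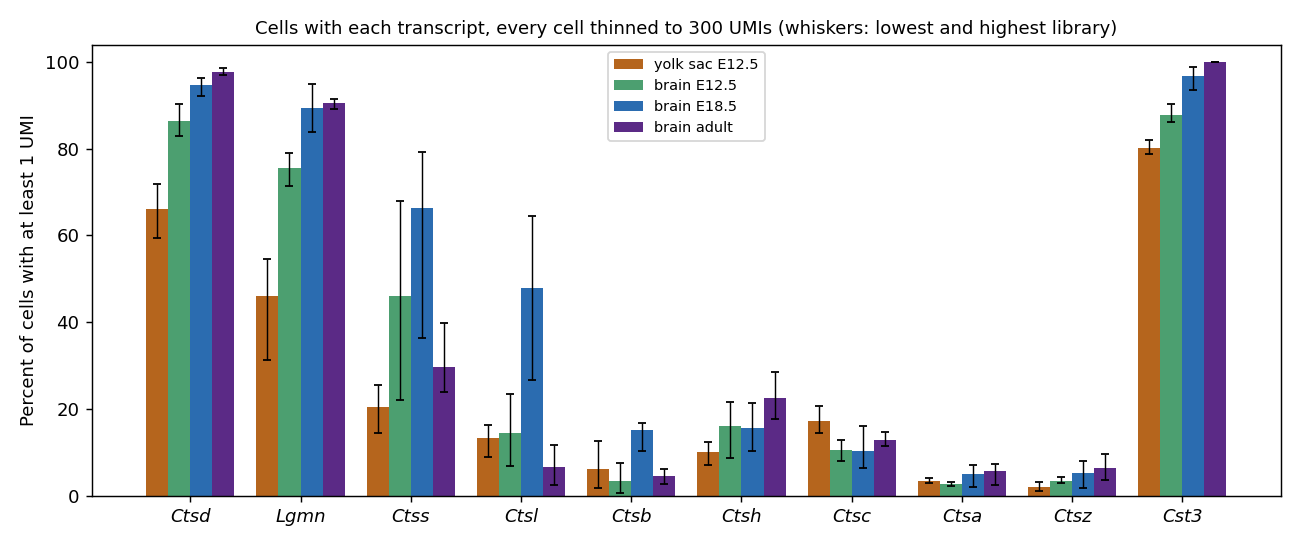
Bars give the percent of cells with at least 1 UMI of each gene after thinning to 300 UMIs per cell, and whiskers the lowest and highest library. Ctsd, Lgmn and Cst3 climb to above 90% in adult cells, while Ctsl and Ctsb stand highest at E18.5 and Ctss varies most between the libraries of E12.5 and E18.5 brain.

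Cell by cell, other proteases led in part of the cells. Ctsd was the single most abundant protease in 38.5% of thinned yolk sac cells, 50.6% of E12.5 brain cells, 48.7% of E18.5 cells and 72.7% of adult cells. Lgmn led in 11.2%, 16.3%, 22.0% and 15.8%, and Ctss in 5.22%, 8.77%, 5.95% and 1.27% of cells in the same order. Ties took 25.5%, 21.0%, 20.9% and 9.98%, and 12.2% of yolk sac cells had no protease UMI among their 300. The median cell held UMIs of 2, 2, 3 and 3 kinds of protease. Between cells of a library, Spearman correlations of Ctsd with Lgmn ran from -0.0938 to 0.359, which in counts this sparse is no finding.

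Other rows with the most similar course were found by the Pearson r of log2 CPM over the 18 libraries, whose 4 groups the values share. For Ctsd these were Trem2, a lipid receptor of microglia (0.989), and Cd81, a tetraspanin (0.985). The nearest to Lgmn was Cd81 (0.972), to Cst3 4632428N05Rik (0.981), to Ctss Dtx4 (0.952) and to Ctsh Lims1 (0.903). A joined row that holds the chemokine Ccl3 was nearest to Ctsl (0.896), and one that holds the vitamin C transporter Slc23a2 to Ctsb (0.920). A joined row with the nucleotide receptor P2ry6 was nearest to Ctsa (0.925), Atp8a2 to Ctsz (0.906), and Josd1 to Ctsc at a lower r of 0.735.

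Other genes of the lysosome were followed in 4 lists, whose counts stand beside the shares of all rows called higher and lower. These were 7.04% and 8.81% in yolk sac against E12.5 brain, 11.1% and 13.4% at E18.5 against E12.5, 10.3% and 11.2% in adult against E18.5 brain, and 17.8% and 20.7% in adult against E12.5 brain. Of 11 other cathepsins and lysosomal peptidases 8 could be tested. At E18.5 against E12.5 in brain 6 were higher and 1 lower, in adult against E18.5 0 were higher and 3 lower, and in adult against E12.5 3 were higher and 0 lower. Napsa, an aspartic protease, was at 4.74 ± 4.21 CPM at E18.5, against 87.7 ± 35.4 CPM at E12.5 (a log2 difference of -4.04, SE 0.77, adjusted p = 4.20e-04). Ctso, a cysteine cathepsin, was at 87.1 ± 24.0 CPM in adults, against 8.75 ± 3.62 CPM at E12.5 (3.37, SE 0.65, adjusted p = 5.96e-05). Tpp1, a tripeptidyl peptidase, was at 241 ± 42.3 CPM in adults, against 516 ± 133 CPM at E18.5 (-1.06, SE 0.24, adjusted p = 9.73e-04), and Dpp7 also fell (-1.10, SE 0.38, adjusted p = 0.0342). In yolk sac against E12.5 brain 1 was higher and 1 lower. Ctsf, a cysteine cathepsin, was at 83.6 ± 1.62 CPM in yolk sac, against 172 ± 15.8 CPM (-0.998, SE 0.22, adjusted p = 5.88e-04), and Scpep1, a serine carboxypeptidase, was higher there (0.88, SE 0.21, adjusted p = 0.00248). Cathepsin G, a granule protease of neutrophil precursors and 1 of the 9 granulocyte markers above, was at 570 ± 591 CPM in adults and 203 ± 207 CPM at E18.5, against 3.47 ± 3.22 CPM at E12.5 (6.98 and 5.48, adjusted p = 0.00392 and 0.0270).

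Of 15 other protease inhibitors 4 could be tested. Cstb, the intracellular cystatin B, ran opposite to Cst3, at 617 ± 43.1 CPM in yolk sac, against 410 ± 9.60 CPM in E12.5 brain (log2 fold change 0.63, SE 0.17, adjusted p = 0.00718). It was at 175 ± 15.3 CPM at E18.5 (-1.24 against E12.5, SE 0.17, adjusted p = 4.18e-07) and at 89.0 ± 36.7 CPM in adults (-0.94 against E18.5, SE 0.24, adjusted p = 0.00386). Serpine2, an inhibitor of secreted serine proteases, was at 18.1 ± 18.9 CPM in yolk sac, against 797 ± 137 CPM in E12.5 brain (-5.35, SE 0.38, adjusted p = 6.45e-10), and at 1658 ± 223 CPM at E18.5 (1.05 against E12.5, SE 0.24, adjusted p = 0.00273). Spint1, a membrane inhibitor of serine proteases, was also lower in yolk sac (1.85 ± 3.71 against 183 ± 91.0 CPM, adjusted p = 1.44e-12). Timp2, an inhibitor of metalloproteases, was higher at E18.5 than at E12.5 (0.88, SE 0.15, adjusted p = 1.68e-05) and higher in adults than at E12.5 (0.73, SE 0.16, adjusted p = 4.75e-04).

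Of 22 lysosomal hydrolases and activator proteins 19 could be tested, and 10 were higher and 0 lower at E18.5 against E12.5 in brain (11.1% and 13.4% of all rows). In adult against E18.5 brain 2 were higher and 8 lower, in adult against E12.5 brain 6 and 4, and in yolk sac against E12.5 brain 1 and 4. Galc, which splits glycolipids, was lower in adults than at E18.5 (log2 fold change -1.97, SE 0.62, adjusted p = 0.0190). It was at 13.6 ± 12.5 CPM in adults, against 57.0 ± 14.6 CPM at E18.5, a low level in adult libraries of at most 99494 UMIs. Gusb, beta-glucuronidase, was higher at E18.5 than at E12.5 (1.00, SE 0.18, adjusted p = 3.69e-05) and lower in adults than at E12.5 (-0.91, SE 0.23, adjusted p = 0.00167). Grn, progranulin, was higher in yolk sac than in E12.5 brain (0.41, SE 0.12, adjusted p = 0.0110), and Naglu, which splits heparan sulfate, was lower there (-1.87, SE 0.27, adjusted p = 8.35e-07).

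Of 18 genes of the lysosomal membrane, of sorting and of regulation 12 could be tested. At E18.5 against E12.5 in brain 8 were higher and 0 lower, in adult against E18.5 brain 2 and 2 (10.3% and 11.2% of all rows), in adult against E12.5 brain 5 and 0, and in yolk sac against E12.5 brain 1 and 3. Lamp1, a main membrane protein of lysosomes, was at 3187 ± 335 CPM in yolk sac, against 2228 ± 239 CPM in E12.5 brain (log2 fold change 0.55, SE 0.13, adjusted p = 0.00166), and fell to 2594 ± 118 CPM in adults, against 3977 ± 313 CPM at E18.5 (-0.58, SE 0.12, adjusted p = 4.31e-04). Lamp2, its relative, was higher at E18.5 than at E12.5 (1.33, SE 0.22, adjusted p = 1.16e-05). Scarb2, a lysosomal membrane receptor, was lower in yolk sac (-1.16, SE 0.20, adjusted p = 2.36e-05). Sort1, a sorting receptor, was higher in adults than at E12.5 (1.09, SE 0.31, adjusted p = 0.00505), as was Laptm4a (2.08, SE 0.35, adjusted p = 4.60e-05), whereas Cd63 was lower in adults than at E18.5 (-0.87, SE 0.19, adjusted p = 9.35e-04). In adult against E18.5 brain the median log2 fold change of the hydrolases was -0.54 and that of the membrane list -0.23, beside -0.03 over all rows.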

How the data were processed

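Single cells were sorted into plates and read by MARS-seq. The authors deposited whole UMI counts per gene and well, not normalized. Per the submitters' processing notes, bcl2fastq 2.15.0.4 and the mm9 build were used. The aligner, UMI collapsing and gene models were not given in the sources used here. Wells with 1 sorted cell and at least 300 UMIs were kept (3012 of 3420), and counts were summed per library. The highest count in a well was 256, and 105 for any member.

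Sums were tested in edgeR 4.0.16 (TMM scaling, filterByExpr, robust quasi-likelihood fit of 18 libraries, R 4.3.3), with SE taken as the log2 fold change over the root of F. Shares and ratios were compared by exact two-sided permutation tests (scipy 1.17.1). CPM are counts scaled to the library total, and log2 CPM for similarity used a prior count of 2. Alternatives included DESeq2 1.42.0, other scaling, filters and cell minimums, thinning, plate sums, batch terms and leaving out libraries. The test was checked on simulated counts. The genes, gene lists and tests were chosen with earlier results of these data known. Named genes are the 10 members, per list and comparison up to 2 called rises and 2 called falls with the largest changes among rows of 1 symbol, and the nearest row by r; some genes that this rule names are not reported here. Plates and batches come from the deposited well annotation. Counting error alone bounds the shares of empty wells.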

Additional observations from a re-analysis of the deposited data

Results flagged for a closer look

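The 408 single-cell wells left out for having fewer than 300 UMIs held 5.61 UMIs of the 10 genes per well, against 0.75 in the 36 empty wells. The wells also differ in total UMIs, with medians of 121 and 24. As a share of all UMIs the 10 genes made up 3.93% in the left-out wells, 2.68% in empty wells and 3.20% in kept cells. The left-out wells hold UMIs of these genes that none of the comparisons used. In 44 groups of 4 to 6 libraries, none had a library that stood apart from the rest by Dixon's criterion.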

How the results depend on the processing

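No paired analysis was possible because the labels give no replicate numbers that the groups share. Of 810 fold changes of members under an alternative, 723 kept direction and side of the threshold, 53 lost the call, 4 gained one and 30 changed sign. Called in every fit, the main fit counted, were Ctsd and Lgmn in yolk sac against E12.5 brain (21 fits) and Ctsl, Lgmn and Cst3 at E18.5 against E12.5 (22). The same held for Ctsl and Cst3 in adult against E18.5 brain (22) and Cst3 in adult against E12.5 brain (20). RLE scaling and DESeq2 changed no call of a member. In what follows, comparisons are named yolk sac, E18.5 and adult when set against E12.5 brain, and adult over E18.5.

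Counts of members and of all genes called were 6 and 774 (yolk sac), 7 and 1195 (E18.5), 6 and 1050 (adult over E18.5) and 7 and 1883 (adult). Summed per plate, which leaves 9 samples, 2 members and 493 genes (yolk sac), 4 and 660 (E18.5) and 2 and 698 (adult over E18.5) were called. Among cells with no granulocyte or erythroid UMI, an alternative chosen after seeing the data that leaves 105 adult cells, it was 3 and 406 (yolk sac), 676 genes (E18.5), 3 and 259 (adult over E18.5) and 3 and 641 (adult), and the median of all genes moved to -0.32 (adult over E18.5) and -0.36 (adult). Libraries thinned to 74562 UMIs gave 377, 621, 692 and 1060 genes, with fewer UMIs by construction, and a batch term gave 332 (E18.5) and 910 (adult). Leaving out 1 library gave 5 to 6, 6 to 7, 4 to 6 and 6 to 7 members, and 625 to 727, 930 to 1118, 876 to 1033 and 1710 to 1797 genes. The Ctsd share then lay between 45.2% and 46.8% (yolk sac), 44.7% and 49.7% (E12.5 brain), 41.1% and 42.8% (E18.5) and 56.4% and 58.4% (adult).

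The difference in Cst3 per cysteine protease UMI was called at 0.266 (yolk sac) and 2.92 (adult) with at least 500 UMIs per cell (adjusted p = 0.0381). Without 1 library it ran from 0.186 to 0.341 (yolk sac), from -0.0980 to 0.0574 (E18.5), from 2.83 to 3.07 (adult) and from 2.85 to 3.09 (adult over E18.5), where the call was lost because fewer libraries raise the smallest p.

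Some fold changes changed sign, and the cause was not tested. With a batch term these were Ctsl (yolk sac, 0.61), Ctsc (E18.5, 0.63), Ctsz (E18.5, -0.14) and Ctsb (adult, -0.50), and Ctsl within the shared batch (yolk sac, 0.63). In cells with no granulocyte or erythroid UMI they were Ctsh (E18.5, 0.12), Ctsa (-1.08), Ctsz (-0.66) and Lgmn (-0.30) in adult over E18.5, and Ctsb (-0.17) and Ctsc (-0.0074) in adult. With no filter they were Ctsa (-0.0021) and Lgmn (-0.15) in adult over E18.5 and Ctsb (-0.088) in adult. Lgmn in adult over E18.5 was also at -0.097 with 500 UMIs, -0.010 in cells with a C1q UMI and -0.014 per plate. Without 1 library, Ctsl (yolk sac) ran from -0.45 to 0.022, Ctsc and Ctsh (E18.5) from -0.12 to 0.026 and from -0.19 to 0.11, Lgmn (adult over E18.5) from -0.024 to 0.051 and Ctsb (adult) from -0.12 to 0.46. Adult libraries are the shallowest, with 61 Ctsb and 106 Ctsl UMIs in all. Adult library 2 had only 2 cells with no granulocyte or erythroid UMI.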
